A study of Mus musculus with 4 samples.

Results

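The genes described here are 9 parts of one inflammatory circuit in mouse microglia, taken by name from a deposited table of 21044 genes. They are the cytokine genes Il1a, Il1b, Il18, Tnf and Il6, the receptor antagonist gene Il1rn, and the inflammasome genes Nlrp3, Casp1 and Pycard. The rule uses names and no measured value, although the names were proposed with earlier results of these data known. Each name matched 1 gene, and all 9 members had reads in all 4 libraries and passed the filter on low counts, among 13086 genes tested.

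In this circuit a danger or microbial signal first raises the transcripts of the cytokines and of the sensor NLRP3. NLRP3 then joins the adaptor ASC, the product of Pycard, and the protease caspase-1, which cuts the precursors of IL-1beta and IL-18 into their secreted forms. IL-1alpha, TNF and IL-6 do not need this cut, and the product of Il1rn blocks the receptor that IL-1alpha and IL-1beta share. Microglia are a main source of IL-1 and TNF in the brain. Transcript levels, measured here, show the first step and not the cutting or release of the proteins.

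RNA-seq was run on microglia isolated from the corpus callosum at postnatal day 7. The WT group holds 2 libraries labelled wt, of Lag3fl/fl mice, whose Lag3 gene, encoding an inhibitory receptor, carries the floxed allele. The cKO group holds 2 libraries labelled ko, of Lag3cKO-Cx3 mice, a conditional knockout whose driver the labels give only as Cx3. The labels do not state sex, strain, the way the cells were isolated or how many animals went into a library. P-values therefore measure only the spread between these libraries, which may be technical, and the WT mice are not said to carry the driver, so the driver and the deletion cannot be told apart.

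Total counts ran from 14645187 to 16770162. The targeted gene Lag3 had 6064 and 10007 counts in WT and 595 and 257 in cKO, as the labels would have it, and Cx3cr1, the gene whose name resembles the driver, was at 6443 and 6554 CPM (read counts scaled to the library total with TMM factors) in WT and 3404 and 3034 CPM in cKO. Of 10 microglial markers, 9 were in the table and all 9 had reads in every library. They summed to 22810 and 26301 CPM in WT and 23056 and 22305 CPM in cKO, most of it Csf1r, Cx3cr1 and Fcrls. Single markers were not level. Tmem119 was at 380.9 and 540.9 CPM in WT and 773.2 and 1172 CPM in cKO, and Sall1 at 305.7 and 320.6 CPM in WT and 269.6 and 177.8 CPM in cKO. Both cKO libraries lay above both WT libraries for 3 of the 9 and below for 2, beside 15.8% and 20.0% of all genes tested. The second cKO library stood apart, with 12787 genes detected against 14840 to 15899 in the others, and with log2 CPM that correlated with the other libraries at no more than 0.802 across genes, where the other 3 correlated at 0.872 or more. In that library the Y-linked gene Ddx3y had no count, against 89.1 to 106.9 CPM elsewhere, and Xist, which female cells express, was at 290.4 CPM, against 0, 0 and 6.97 CPM. The part of sex in the values below was not tested. The fits without that library are given with the members. In bulk RNA, fewer cells of a type and less RNA per cell cannot be told apart.

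The sequence before the start site is shown for Il1a, Il1b and Tnf, the members with an edgeR unadjusted p under 0.05, for Il6, which had the highest fold, and for contrast for Pycard, whose level was nearly the same in all libraries. All 9 members matched RefSeq start sites on GRCm38.p6, 12 windows in all. Each run is the 250 bases before the start, 5′ to 3′ on the gene's strand. Capitals mark matches to the motifs searched.
Il1a, chr2:129309973-129310222, minus strand: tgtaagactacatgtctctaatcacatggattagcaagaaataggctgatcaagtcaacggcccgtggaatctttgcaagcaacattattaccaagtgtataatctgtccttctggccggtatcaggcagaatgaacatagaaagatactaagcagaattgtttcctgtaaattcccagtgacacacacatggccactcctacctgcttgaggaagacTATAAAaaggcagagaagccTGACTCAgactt
Il1b, chr2:129371140-129371389, minus strand: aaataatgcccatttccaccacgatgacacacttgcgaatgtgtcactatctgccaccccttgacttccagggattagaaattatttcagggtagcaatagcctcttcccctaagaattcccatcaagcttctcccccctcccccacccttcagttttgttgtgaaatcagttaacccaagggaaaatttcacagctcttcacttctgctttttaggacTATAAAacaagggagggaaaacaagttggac
Tnf, chr17:35202008-35202257, minus strand: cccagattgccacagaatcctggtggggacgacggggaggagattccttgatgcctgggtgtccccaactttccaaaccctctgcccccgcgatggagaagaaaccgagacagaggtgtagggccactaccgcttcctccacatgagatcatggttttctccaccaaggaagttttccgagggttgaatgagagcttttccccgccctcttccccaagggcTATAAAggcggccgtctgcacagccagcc
Il6, chr5:30012864-30013113, plus strand: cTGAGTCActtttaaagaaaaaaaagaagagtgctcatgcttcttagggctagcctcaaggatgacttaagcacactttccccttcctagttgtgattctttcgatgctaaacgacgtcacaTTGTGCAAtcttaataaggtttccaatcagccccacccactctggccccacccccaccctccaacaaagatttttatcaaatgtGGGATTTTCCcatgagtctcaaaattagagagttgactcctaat
Pycard, chr7:127993868-127994117, minus strand: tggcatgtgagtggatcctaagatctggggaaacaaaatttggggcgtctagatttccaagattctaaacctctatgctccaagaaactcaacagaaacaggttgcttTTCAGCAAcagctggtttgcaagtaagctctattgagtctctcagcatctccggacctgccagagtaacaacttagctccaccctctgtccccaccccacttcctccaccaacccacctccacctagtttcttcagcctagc

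Motifs were searched on both strands. They were the NF-kB consensus (by name), TATAAA (the TATA box), TGANTCA (AP-1) and TTNNGCAA (C/EBP), and no marked match overlaps another. TATAAA lay 32 to 27 bases before the start of Il1a, 31 to 26 before that of Il1b and 29 to 24 before that of Tnf. A TATAAA on the gene's strand within the last 40 bases was present in 2.31% of 32807 promoter windows of mouse genes, and one anywhere in the 250 bases on either strand was present in 12.4%. Il6 held the NF-kB consensus, GGGATTTTCC, 44 to 35 bases before its start, which 7.25% of all windows hold on either strand, together with a C/EBP match (9.57% of windows) and an AP-1 match (6.75%). Il1a held an AP-1 match 12 to 6 bases before its start. In Pycard the only match was to C/EBP. Over all 9 members, NF-kB was matched in Il6 and Nlrp3, and AP-1 in Il1a, Il1rn and Il6. The Nlrp3 match lay in its window 2 and not in window 1, and the Il1rn match in its window 1 only. The start sequence of that Nlrp3 window was not found in a GENCODE M21 transcript of the gene, nor was that of the Il18 window. TATAAA was matched in Il1a, Il1b and Tnf, and in Il18 on the other strand, 175 to 170 bases before the start. C/EBP was matched in Il6 and Pycard, ISRE in 0 of the 9 (2.97% of all windows), and Casp1 held no match. Matches to NF-kB, AP-1 and C/EBP were thus also found in members whose levels differed little (Nlrp3, Il1rn and Pycard), and matches to TATAAA were not. A link between motifs and levels was not tested. These are matches of letters, and an absent match says only that the letters are not in this window.

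**Figure D1:**
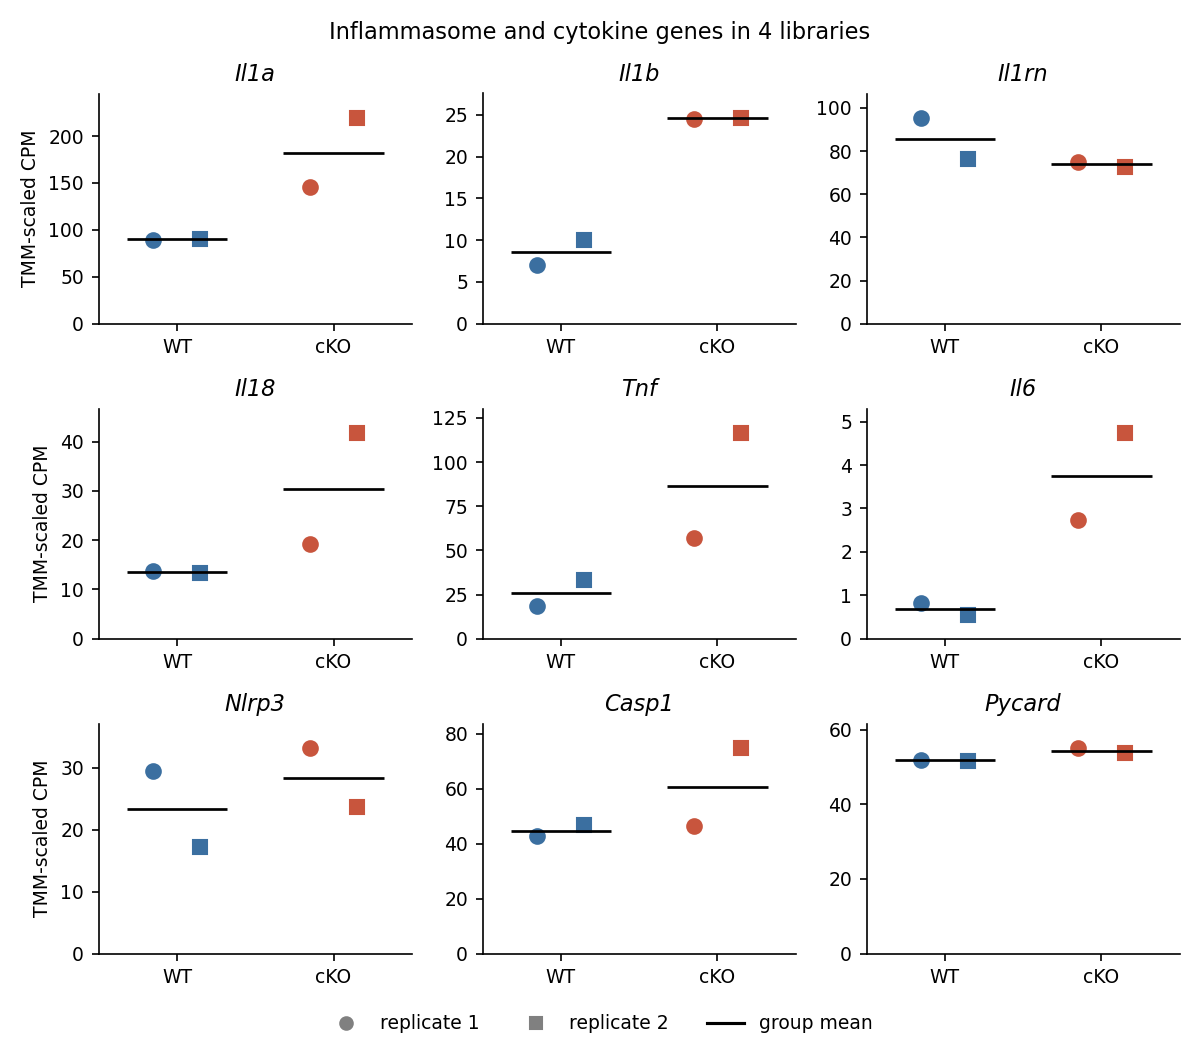
Level of each of the 9 genes, in TMM-scaled CPM on linear axes from 0, for WT and cKO libraries (circle, replicate 1; square, replicate 2; line, group mean of 2). Il1a, Il1b, Il18, Tnf and Il6 sit higher in both cKO libraries than in both WT libraries, while Pycard is nearly level.

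In both cKO libraries 6 of the 9 genes were higher than in either WT library (Il1a, Il1b, Il18, Tnf, Il6 and Pycard), where 15.8% of all tested genes were. Groups without overlap in either direction were seen for 35.9% of tested genes. Il1rn lay below with TMM scaling, as 20.0% of tested genes did, but its groups overlapped in unscaled CPM and in FPKM. Nlrp3 and Casp1 overlapped between the groups, although Casp1 was higher in both cKO libraries in unscaled CPM and in FPKM. None of the 9 genes passed edgeR's quasi-likelihood test over all genes at an adjusted p under 0.05, each with adjusted p = 0.9997. Of all 13086 genes tested, 0 passed it (0.0%). The targeted gene Lag3, with a log2 fold change of -4.35, also had an adjusted p = 0.9997 by edgeR, against 1.04e-19 by DESeq2. The edgeR adjusted p therefore cannot show here that a gene was unchanged. At an unadjusted p under 0.05, 608 genes (4.65%) differed by edgeR, of which 231 (1.77% of all) were higher in cKO, Il1a, Il1b and Tnf among them. DESeq2 called 39 genes (0.298%), none of them a member, of which 17 (0.13%) were higher in cKO, and limma on FPKM called 0. The median log2 fold change, cKO over WT, was 1.02 for the 9 members and -0.027 for all genes tested. For the members it fell to 0.51 without cKO replicate 2 and was 1.28 without cKO replicate 1.

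Among the IL-1 genes, Il1b encodes the cytokine that caspase-1 releases. It lies on chromosome 2 (GRCm38, 129364570 to 129371139, minus strand). Its counts were 111 and 147 in WT and 412 and 369 in cKO, or 7.08, 10.03, 24.5 and 24.6 CPM. The 2 cKO libraries were thus alike and the lower of them stood 2.45-fold above the higher WT library, while the WT libraries differed 1.42-fold. The cKO over WT log2 difference was 1.52 ± 0.47 (SE, edgeR unadjusted p = 0.0245), and DESeq2 gave an adjusted p = 0.483. Without cKO replicate 2 it was 1.52 and without cKO replicate 1 it was also 1.52, so leaving out the library that stood apart did not move it. Of the genes with a mean of at least 5 CPM, 9426 in number, 2.09% had a larger log2 fold change.

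Il1a, whose product acts on the same receptor and serves as an alarm signal from injured cells, was the most abundant member per transcript length and lies near Il1b on chromosome 2 (129299610 to 129309972, minus strand). Its counts were 1402 and 1329 in WT and 2438 and 3286 in cKO, or 89.4 and 90.7 CPM in WT and 145.2 and 219.1 CPM in cKO. The WT libraries were within 1.01-fold of each other, and the lower cKO library was 1.60 times the higher of them. The cKO over WT log2 difference was 1.02 ± 0.27 (SE, edgeR unadjusted p = 0.014, DESeq2 adjusted p = 0.154). Leaving out cKO replicate 2 gave 0.69, and leaving out cKO replicate 1 gave 1.28. The latter fit gave an adjusted p = 0.0387 by edgeR, but it called 5.72% of all genes, 0.81% as higher in cKO, and the single cKO library left is taken to be as variable as WT. A transcript on the other strand, Gm14023, shares exon sequence with Il1a and had 224 and 229 counts in WT and 355 and 388 in cKO. Strand is not stated for the counting, so reads of Il1a and Gm14023 cannot be fully told apart. The same holds for Il1b and its antisense gene Il1bos, which had 7 and 12 counts in WT and 12 and 0 in cKO.

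Il1rn, which encodes the antagonist of the IL-1 receptor, differed least in the IL-1 group. On chromosome 2 (24336853 to 24351494, plus strand), it was at 95.3 and 76.2 CPM in WT and at 75.0 and 72.8 CPM in cKO (log2 difference -0.21 ± 0.24, SE). Only WT replicate 1 was well above the rest, and without it the log2 fold change was -0.055. Set against Il1b in the same library, in FPKM, which is scaled by transcript length, Il1rn had 4.64 and 2.62 times the level of Il1b in WT and 1.05 and 1.02 times in cKO. The groups did not overlap, and in cKO the 2 transcripts stood at nearly equal FPKM. In read counts, Il1rn had 1259 and 1092 in cKO against 412 and 369 for Il1b. The near-equal level thus rests on the lengths used for FPKM. The log2 ratio was 1.80 ± 0.58 (SD, n = 2) in WT and 0.051 ± 0.033 (SD, n = 2) in cKO, a difference of -1.75 with an exact permutation p = 0.33 (two-sided), the smallest that 2 libraries against 2 can give. This ratio does not depend on how libraries are scaled. For Il1a over Il1b the ratio was 12.2 and 8.73 in WT and 5.72 and 8.60 in cKO, with little space between the groups.

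Il18, on chromosome 9 (50554827 to 50581840, plus strand), encodes the other cytokine that caspase-1 releases. Its level was 13.7 and 13.3 CPM in WT and 19.2 and 41.7 CPM in cKO. The cKO libraries differed 2.17-fold from each other, more than the lower of them differed from WT (1.40-fold). The log2 fold change of 1.17 (standard error 0.52, edgeR unadjusted p = 0.0769) dropped to 0.51 when cKO replicate 2 was left out and was 1.63 when cKO replicate 1 was. Most of the Il18 difference was thus in cKO replicate 2.

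Tnf encodes an early cytokine that acts on receptors of neighbouring glia and neurons. It lies on chromosome 17 (35199381 to 35202007, minus strand). It had 286 and 486 counts in WT and 955 and 1746 in cKO, or 18.2, 33.2, 56.9 and 116.4 CPM. The 4 libraries were spread apart, with the cKO pair above the WT pair. The lowest cKO library was 1.71-fold above the highest WT library, close to the 1.82-fold gap within WT and below the 2.05-fold gap within cKO. The cKO over WT log2 difference was 1.75 ± 0.52 (SE, edgeR unadjusted p = 0.0213, DESeq2 adjusted p = 0.159). It was 1.15 without cKO replicate 2 and 2.24 without WT replicate 2. Among genes with a mean of at least 5 CPM, 1.45% had a larger log2 fold change.

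Il6, a cytokine that acts on glia, neurons and vessels, was the rarest member and lies on chromosome 5 (30013114 to 30019981, plus strand). Its counts were 13 and 8 in WT and 46 and 71 in cKO, or 0.829, 0.546, 2.74 and 4.73 CPM. The exact Poisson intervals at 95%, which cover counting error only, were 6.92 to 22.2 and 3.45 to 15.8 counts for the WT libraries and 33.7 to 61.4 and 55.5 to 89.6 for the cKO libraries. The intervals of the groups do not meet, but they leave out the spread between libraries. The cKO over WT log2 difference was 2.43 ± 1.22 (SE), the largest of the 9 and the least precise (edgeR unadjusted p = 0.107). Leaving out cKO replicate 2 gave 1.98. On the log2(FPKM + 1) scale, which shrinks low genes, the difference was 0.98.

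The inflammasome genes themselves differed less. Pycard, the adaptor gene, on chromosome 7 (127989708 to 127993867, minus strand), was at 51.9 and 51.7 CPM in WT and at 55.0 and 53.7 CPM in cKO (log2 difference 0.070 ± 0.25, SE). Its 4 libraries lay within a narrow band, and 42.6% of genes with a mean of at least 5 CPM had a larger log2 fold change. An antisense gene over Pycard, Gm45205, had 12 counts in WT replicate 2 and 0 in the other 3 libraries. Casp1, the protease gene, on chromosome 9 (5298517 to 5307265, plus strand), was at 42.8 and 46.7 CPM in WT and at 46.5 and 74.7 CPM in cKO. Its log2 fold change of 0.44 (standard error 0.34) rested on cKO replicate 2, without which it was 0.056. Nlrp3, the sensor gene, on chromosome 11 (59541568 to 59566956, plus strand), was at 29.5 and 17.2 CPM in WT and at 33.2 and 23.6 CPM in cKO. Each group held 1 high and 1 low library, and the log2 fold change of 0.28 (standard error 0.45) became -0.063 without WT replicate 2 and 0.50 without cKO replicate 2.

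**Figure D2:**
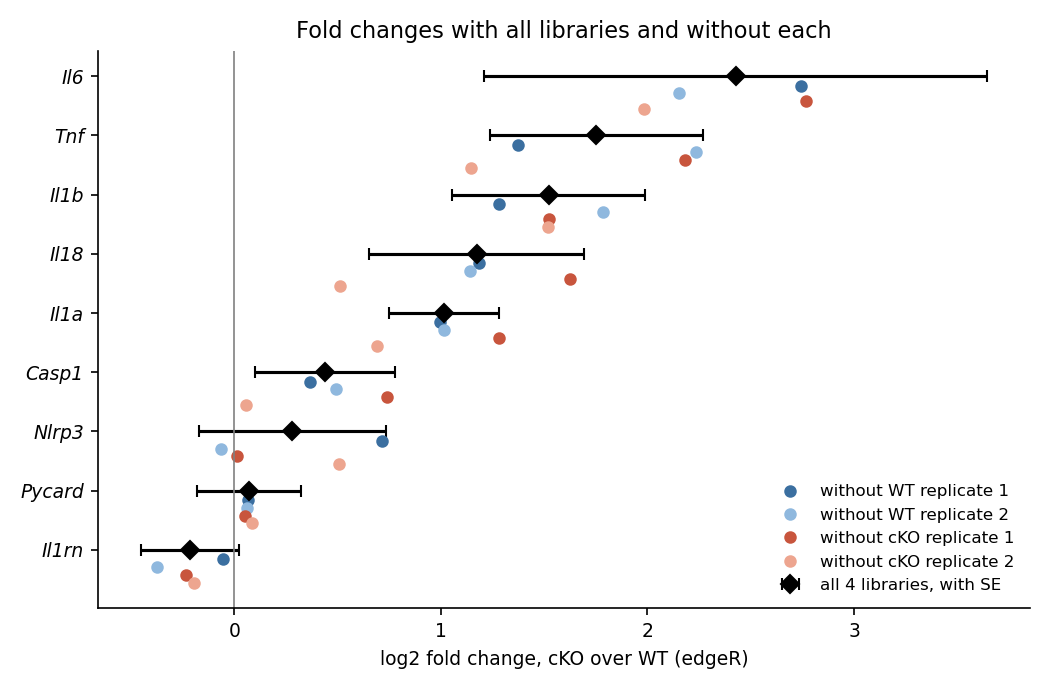
Log2 fold change of cKO over WT from edgeR for each gene (diamond, all 4 libraries, bar of 1 standard error), with the value after leaving out each library in turn (circles). Il1b stays between 1.28 and 1.79, whereas Il18 and Casp1 drop to 0.51 and 0.056 without cKO replicate 2.

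Levels can be compared between genes only per transcript length. In FPKM, Il1a was first in all 4 libraries and Il6 last, with 44.9 ± 0.12 and 0.28 ± 0.083 in WT and 93.6 ± 28.3 and 1.56 ± 0.61 in cKO (mean ± SD, n = 2 each). In WT, Casp1 came second with 29.4 ± 1.59, and Tnf, Il1rn, Pycard and Il18 lay between 12.9 and 15.4 on average. Tnf overlapped the other 3 and Il1rn overlapped Pycard, while the Pycard libraries (13.5 and 13.3) lay just above those of Il18 (13.2 and 12.6). Nlrp3 (5.67 ± 2.16) and Il1b (4.41 ± 1.04) overlapped as well. Both cKO libraries gave one and the same order, which was Il1a, Tnf, Casp1, Il18, Pycard, Il1rn, Il1b, Nlrp3 and Il6. Tnf held rank 6 of the 9 in WT replicate 1, rank 3 in WT replicate 2 and rank 2 in both cKO libraries. Tnf and Casp1 overlapped in cKO, as did Casp1 and Il18.

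The 5 agonist cytokine genes summed to 73.0 and 82.8 FPKM in WT and to 141.1 and 243.1 FPKM in cKO. Il1a made up 61.4% and 54.3% of this sum in WT and 52.2% and 46.8% in cKO. Tnf made up 15.1% and 23.9% in WT and 24.6% and 29.9% in cKO, so its share in cKO replicate 1 was close to that in WT replicate 2. Il6 stayed at or below 0.821% throughout. Nlrp3, Casp1 and Pycard together summed to 49.0 and 48.0 FPKM in WT and to 53.8 and 71.6 FPKM in cKO. The cytokine sum of cKO replicate 1 was thus well above WT while its inflammasome sum was close to WT.

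**Figure D3:**
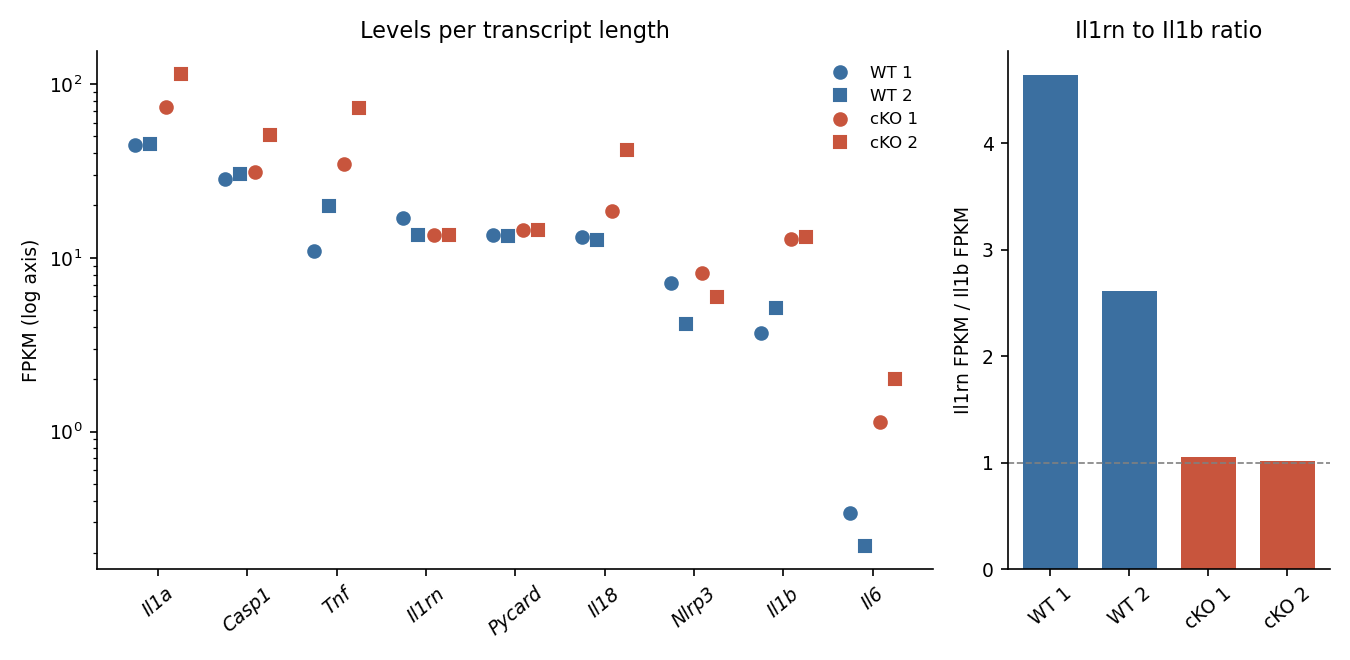
Left, FPKM of the 9 genes on a log axis in each library, ordered by their WT mean. Right, ratio of Il1rn to Il1b in FPKM per library, with a dashed line at 1, showing 4.64 and 2.62 in WT against 1.05 and 1.02 in cKO.

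Microglia are not the only cells that make these cytokines, and markers of others are given beside them. Of 13 neutrophil markers, 7 were tested and 6 were fitted higher in cKO. The markers summed to 235.3 and 277.6 CPM in WT and to 278.5 and 397.2 CPM in cKO, with Csf3r, which microglia also express, giving 202.7 to 265.8 CPM of each sum. The defining gene Ly6g had 6.47 CPM in cKO replicate 2 and was at 0 in the other 3 libraries. The granule gene Ngp was at 0, 0.341, 2.203 and 41.7 CPM in WT replicates 1 and 2 and cKO replicates 1 and 2, with an adjusted p = 0.0277 by DESeq2 and 0.9997 by edgeR. Cxcr2, a chemokine receptor of neutrophils, was higher in both cKO libraries, at 2.36 and 2.87 CPM in WT and 10.4 and 16.8 CPM in cKO. Mmp8, a neutrophil collagenase, was the reverse, at 6.38 and 5.19 CPM in WT and 0 in both cKO libraries (DESeq2 adjusted p = 0.0353, edgeR 0.9997). Mpo and Elane had reads in WT replicate 1 alone, and Ltf ran from 0 in cKO replicate 1 to 42.1 CPM in cKO replicate 2. The list thus held genes on both sides, and its median log2 fold change over the 7 tested was 1.37. That median turned to -0.22 without cKO replicate 2 and was 2.11 without cKO replicate 1. The 6 monocyte markers summed to 35.5 and 22.8 CPM in WT and to 30.7 and 84.7 CPM in cKO, and Ccr2 was at 3.76, 5.26, 7.50 and 13.1 CPM. The border-associated macrophage markers, most of their sum being Mrc1, summed to 505.5 and 552.2 CPM in WT and to 525.8 and 545.5 CPM in cKO. Of the 7 markers, 4 were fitted higher and 3 lower. Lyve1 alone separated the groups, at 8.67 and 3.28 CPM in WT and 14.9 and 14.8 CPM in cKO. The 10 astrocyte markers, all fitted higher in cKO, had a median log2 fold change of 1.42, against 1.02 for the members. Without cKO replicate 2 these medians were 0.49 and 0.51, so their order rested on that library. Of the 10 markers, 6 were higher in both cKO libraries than in either WT library, beside 15.8% of all genes. The glutamate transporter gene Slc1a3 was at 33.7 and 45.1 CPM in WT and 81.3 and 132.4 CPM in cKO, and the transcription factor gene Sox9 at 5.55 and 2.87 CPM in WT and 13.1 and 31.9 CPM in cKO. The astrocyte sum, most of it Gfap and Glul, was 430.2 and 373.7 CPM in WT and 425.5 and 970.9 CPM in cKO. The 5 erythroid markers summed to 3.57 and 4.85 CPM in WT and to 11.2 and 12.5 CPM in cKO, and the 4 T and NK cell markers in the table to at most 2.74 CPM in any library. Oligodendrocyte lineage markers summed highest in cKO replicate 1 (147.2 CPM), as did endothelial and mural markers (29.8 CPM). Neuron markers summed highest in WT replicate 2 (11.8 CPM). Il1a, Il18, Tnf, Il6 and Casp1 were highest in cKO replicate 2, the library where neutrophil, monocyte and astrocyte markers summed highest. Some neutrophil and astrocyte markers were also higher in cKO replicate 1 than in WT, as Il1b, Il1a and Tnf were, and what such cells add to the cytokine values was not tested.

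Around the members, 10 lists with 108 further genes of the pathway were read in the same fit. Of these, 83 were tested, 0 passed edgeR or DESeq2, and 7 had an edgeR unadjusted p under 0.05, beside 4.65% of all genes tested. Over all genes tested, 48.2% were fitted higher in cKO. The median of 7 of the 10 lists changed sign when a library was left out, and those of the NF-kB targets, the immediate early genes and the mRNA decay genes did not.

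Sensors other than NLRP3 were split. Of 13 listed, 8 were tested, 4 fitted higher and 4 lower, with a median log2 fold change of -0.011. Naip2, which detects the inner rod protein of bacterial secretion systems, was at 62.2 and 63.2 CPM in WT and at 77.6 and 80.0 CPM in cKO. Nlrp1b was at 8.10 and 7.03 CPM in WT and at 6.07 and 4.33 CPM in cKO. Naip genes are close copies, so reads may be split among them. The DNA sensor gene Aim2 was chosen after its values were seen, and was at 33.0 and 36.4 CPM in WT and at 52.3 and 18.3 CPM in cKO, so its cKO libraries fell on either side of WT.

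Among 7 tested effector genes, 3 were fitted higher and 4 lower, with a median of -0.0032. Casp4, which encodes caspase-11, the mouse sensor and protease for bacterial lipopolysaccharide inside cells, was at 6.63 and 6.89 CPM in WT and at 23.9 and 34.6 CPM in cKO. Both cKO libraries were several times above both WT libraries, which were nearly equal. Its cKO over WT log2 difference was 2.11 ± 0.46 (SE, edgeR unadjusted p = 0.00694, adjusted p = 0.9997; DESeq2 adjusted p = 0.0825). P2rx7, the ATP receptor that triggers NLRP3, was at 180.9 and 184.4 CPM in WT and at 160.8 and 132.1 CPM in cKO. Gsdmd, which encodes the pore former cut by caspase-1 and caspase-11, did not separate the groups and was named after its values were seen, with 261.5 and 255.8 CPM in WT and 264.5 and 171.3 CPM in cKO.

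On the receiving side, 6 of 9 receptor and decoy genes of IL-1 and IL-18 were tested, and the groups overlapped for all 6. Il1r1, the signalling receptor of IL-1, was low, at 14.5 and 5.53 CPM in WT and 12.4 and 2.40 CPM in cKO, and was chosen after its values were seen. The 10 adaptors and kinases split evenly, with a median of -0.027. Myd88, the adaptor of IL-1 and Toll-like receptors, was at 73.2 and 81.6 CPM in WT and at 120.9 and 122.2 CPM in cKO (log2 difference 0.65 ± 0.20, SE). Traf6, a ubiquitin ligase gene that acts after Myd88, was at 46.9 and 38.9 CPM in WT and 26.7 and 26.1 CPM in cKO. The kinase gene Irak4 was at 47.9 and 45.8 CPM in WT and 41.1 and 14.1 CPM in cKO, so most of its difference was in cKO replicate 2.

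For TNF, 9 genes of shedding, receptors and adaptors had a median of -0.12, with 3 fitted higher. Adam17, the protease that sheds TNF from the membrane, was at 203.6 and 170.4 CPM in WT and at 218.5 and 217.7 CPM in cKO, and the other 8 overlapped between the groups. For IL-6, 7 genes had a median of -0.089. Stat3, the transcription factor behind the IL-6 receptor, was at 249.4 and 282.0 CPM in WT and at 348.2 and 381.5 CPM in cKO (log2 difference 0.46 ± 0.17, SE), and the other 6 overlapped. Genes that bind and destroy or stabilise cytokine mRNA had a median of -0.10 over 7 genes, none of which separated the groups. Zfp36, which destabilises Tnf mRNA, was named after its values were seen, at 1029 and 1304 CPM in WT and 1146 and 1229 CPM in cKO.

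NF-kB target genes had a median of 0.31 over 11 genes, 8 of them fitted higher. The cKO pair lay above WT for 5 and below for 1, the feedback gene Tnfaip3, named after its values were seen (114.7 and 106.7 CPM in WT, 93.5 and 91.3 CPM in cKO), beside 15.8% of all genes above and 20.0% below. The chemokine gene Ccl2 was at 242.2 and 241.1 CPM in WT and at 320.5 and 748.9 CPM in cKO, with cKO replicate 2 far above the rest. Nfkbia, the inhibitor that NF-kB itself induces, was at 121.6 and 147.3 CPM in WT and at 160.7 and 297.7 CPM in cKO, and Icam1 had a log2 fold change of 0.34. Of 16 other cytokine genes, 7 were tested and 9 were in the table at all. Csf1, a growth factor of microglia, was at 636.4 and 585.2 CPM in WT and at 514.9 and 305.4 CPM in cKO, and Il15 had a log2 fold change of 0.30.

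Immediate early genes, which respond within minutes to stimulation and to tissue dissociation, had a median of 0.35 over 11 genes, 8 of them fitted higher. Their summed level was 5173 and 6393 CPM in WT and 5530 and 7618 CPM in cKO. Both cKO libraries lay above both WT libraries for 3 of the 11 genes and below for 2, beside 15.8% and 20.0% of all genes tested. Fosl2 was at 2.04 and 1.16 CPM in WT and at 9.94 and 17.1 CPM in cKO, and Ier3 had a log2 fold change of 0.70. Atf3, a stress factor, lay lower in cKO, with 501.1 and 471.2 CPM in WT and 361.5 and 303.7 CPM in cKO. The part of cell handling in the cytokine values was not tested.

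**Figure D4:**
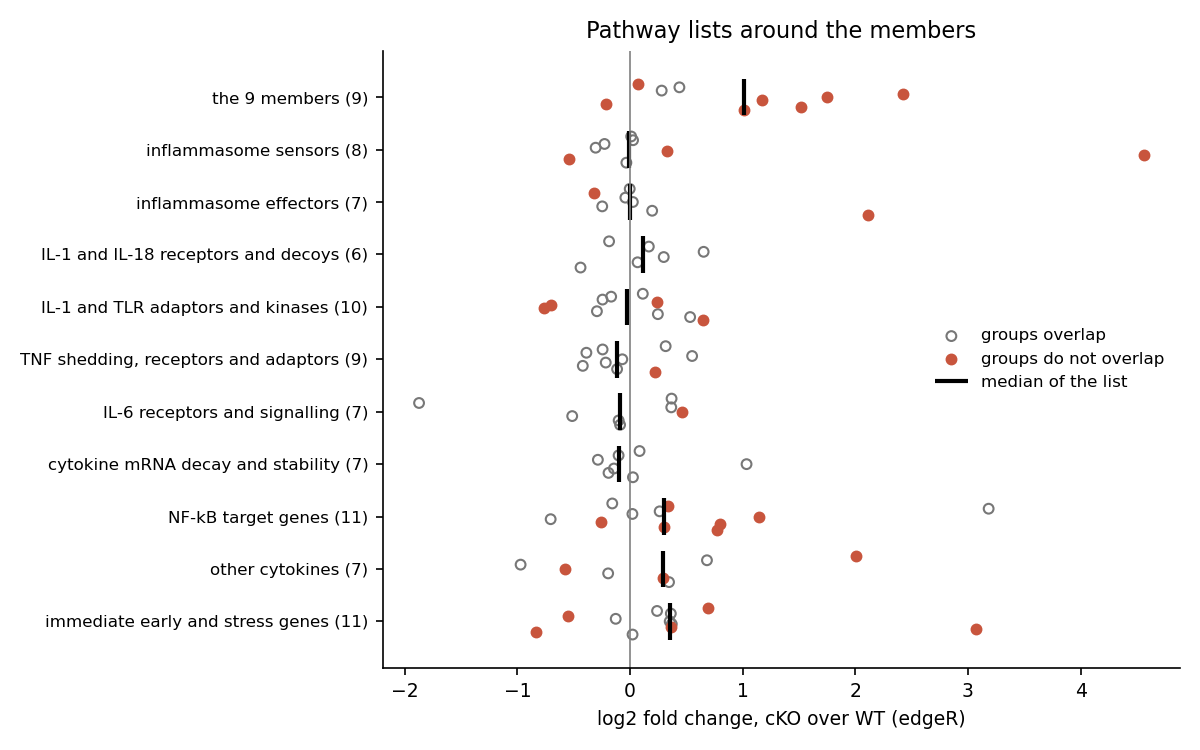
Log2 fold change of cKO over WT from edgeR for each tested gene of the 9 members and of the 10 pathway lists (number tested in brackets), filled where both cKO libraries lie on one side of both WT libraries, with the list median as a bar. The median is 1.02 for the members (0.51 without cKO replicate 2) and between -0.12 and 0.35 for the other lists.

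Genes whose pattern over the 4 libraries was most like that of Il1b or Tnf were found by the Euclidean distance of mean-centred log2 CPM among 8937 genes. For Il1b they were Zfp626, Cd300ld and Zfp39, at distances of 0.21, 0.25 and 0.27. For Tnf they were Arxes2, Ptn and Fbxl8, at distances of 0.13, 0.26 and 0.26. Of the members, Il1a was nearest to Il1b at 0.76, with 136 genes nearer, and Il1b was nearest to Tnf at 0.79, with 103 genes nearer.

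The authors' deposited tables compare 1 cKO library with 1 WT library at a time and call a gene at 2-fold or more with p under 0.05, so they hold no replicate check. In the authors' deposited tables Il1b and Il6 were called higher in all 4, as were 2.25% of the 13269 genes present in all 4 tables. Tnf was called in 3 of the authors' deposited tables, and Il1a and Il18 in the 2 that use cKO replicate 2. Per table, 20.3%, 17.2%, 18.1% and 17.1% of genes were called higher (cKO replicate 1 over WT replicates 1 and 2, then cKO replicate 2 over the same). In the authors' deposited table of cKO replicate 1 over WT replicate 2, Tnf was at 1.75-fold and missed the 2-fold line. For Il1b the 4 folds in the authors' deposited tables ran from 2.50 to 3.60, and for Il6 from 3.35 to 9.07. Those of Il1a were 1.64 and 1.64 with cKO replicate 1 and 2.54 and 2.53 with cKO replicate 2. Il1rn, Nlrp3, Casp1 and Pycard were called in none of the authors' deposited tables. Each library stands in 2 of these tables, so the 4 are not independent.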

How the data were processed

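Read counts per gene for 4 libraries were deposited by the authors in 4 tables that each pair 1 cKO with 1 WT library, besides FPKM for all genes. Per the submitters' processing notes, Bowtie2 2.2.3, TopHat2 2.0.12, HTSeq 0.6.0 and mm9 were used, and settings, strand and annotation are not given in the sources used here. Gene positions in the table matched GRCm38, with 92.1% of 21008 genes placed as in GENCODE M21, so coordinates are given on GRCm38. The deposited tables also hold the authors' normalized signal, a ratio per gene (fold of the cKO over the WT library), that ratio on the log2 scale, and p-values, from a test not given in the sources used here. Their adjusted p was below the unadjusted p in 82.7% of rows, so only the calls and folds are quoted.

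Counts of 18459 genes were joined. Of 73836 cells, 4315 missing ones were recovered from FPKM, all whole within 1e-06 and none above 4. edgeR 4.0.16 in R 4.3.3 was run with TMM, filterByExpr and the quasi-likelihood test, with Benjamini-Hochberg adjustment over 13086 genes. CPM is TMM-scaled unless called unscaled, and standard errors come from the F statistic. Libraries of a group differed by more than sampling noise (chi-square per degree of freedom of 27.8 and 107.5 for WT and cKO). The scripts were tested on simulated data with the same spread set for every gene and no library that stood apart. That test therefore does not show how the fits behave on these libraries. Alternatives were DESeq2 1.42.0, limma 3.58.1 on log2 FPKM with pseudocounts of 0.1, 0.5 and 1, 2 scalings, 2 filters, a replicate block and leaving out each library.

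The members and lists were chosen with earlier results of these data known. Every member is named. Of each list up to 3 genes with the smallest p are named, among those averaging 5 CPM or more without overlap between groups, and others are said to fall outside this.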

Additional observations from a re-analysis of the deposited data

How the results depend on the processing

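The number of genes called was 0 in the edgeR fit with all libraries and 0 under 8 alternatives, namely 2 other scalings, 2 other filters, limma with 3 pseudocounts, and the replicate block. DESeq2 called 39. With 1 library left out the count ran from 0 to 748, which was reached without cKO replicate 1. Leaving out each library moved the log2 fold change over 0.69 to 1.28 for Il1a, 1.28 to 1.79 for Il1b, -0.37 to -0.055 for Il1rn, 0.51 to 1.63 for Il18, 1.15 to 2.24 for Tnf, 1.98 to 2.77 for Il6, 0.056 to 0.74 for Casp1, 0.053 to 0.087 for Pycard and -0.063 to 0.71 for Nlrp3. Of these, Il1a passed the threshold without cKO replicate 1 (adjusted p = 0.0387 by edgeR), and Nlrp3 turned to -0.063 without WT replicate 2. The cause was not tested. Under the 9 other alternatives no member changed direction or passed the threshold. Il6 had 8 counts in WT replicate 2 and gave no value with at least 10 counts required in every library. The difference of the Il1rn to Il1b log2 ratio was -2.16 to -1.34 over leaving out each library, and in CPM it is the same by construction.

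Deviations of libraries with one number correlated at -0.023 across genes, and nothing in the labels says that a number marks a shared origin. With the replicate block 0 genes were called, with Il1b at 1.54 and Tnf at 1.73. With 2 libraries a group, depth limits Il6 most, where 1 count is worth 0.0596 to 0.0683 CPM.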

Other observations

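Some genes near the circuit had values in single libraries that a reader may want to see, all chosen after their values were seen. Nlrc4, the sensor partner of the Naip proteins, was at 0 and 0.683 CPM in the WT libraries and at 8.52 and 7.87 CPM in the cKO libraries (log2 difference 4.56 ± 1.96, SE, edgeR adjusted p = 0.9997, DESeq2 adjusted p = 0.456). Naip6 was at 45.7, 66.8 and 95.0 CPM in WT replicates 1 and 2 and cKO replicate 1, against 1.07 CPM in cKO replicate 2, and Naip5 was at 70.9, 68.5, 82.1 and 30.6 CPM in the same order. Cxcl10, a chemokine gene induced by interferon, was at 2.17, 1.02 and 1.37 CPM in those 3 libraries and at 27.8 CPM in cKO replicate 2.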
